A study of Mus musculus with 18 samples.

Results

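Opposite sterol states were compared in LPS-stimulated mouse macrophages: cells that had first been given reconstituted high-density lipoprotein (rHDL), an acceptor of cholesterol, and cells that had first been loaded with cholesterol. The 3 libraries labelled as rHDL with LPS and the 3 labelled as cholesterol liposomes with LPS were taken by their labels, which gives 6 of the 18 libraries of the series, and 8965 genes passed the low-count filter in their count table. All cells were macrophages grown from the bone marrow of C57BL/6J mice for 7 days in medium conditioned by L929 cells, which supplies macrophage colony-stimulating factor. The rHDL group received CSL111, particles of APOA1 and soybean phosphatidylcholine in a ratio of 1 to 150, from day 8 for 20 h, and was then washed and given LPS, the bacterial lipopolysaccharide that activates Toll-like receptor 4. The loaded group received liposomes of the phospholipid POPC and cholesterol, no rHDL, and LPS. Another group of 3 libraries that received LPS without pretreatment, measured in the same table, is used to place each gene. No group in that table had rHDL or loading without LPS, so every value below is from LPS-stimulated cells. How much LPS was given, for how long, and how long loading lasted is not given in the sources used here. Likewise, the labels leave out whether replicates were separate cultures or animals, and therefore p-values measure only the spread between these libraries, which may be technical.

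Macrophages take up cholesterol from lipoproteins and dead cells and cannot break down its ring, so they export or esterify the surplus. When sterol in the endoplasmic reticulum is low, the SREBP2 factor, held back by INSIG1 at high sterol, is released and turns on the enzymes of cholesterol synthesis. When sterol is high, oxysterols and the precursor desmosterol activate the LXR receptors, which turn on the exporters ABCA1 and ABCG1 that pass cholesterol to APOA1 and HDL. Sterol state is also known to act on Toll-like receptor signalling through membrane rafts and through LXR.

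Library totals ran from 12666846 to 15607889 counts in the rHDL group and from 9464916 to 12225366 in the loaded group. On the first principal component of log2 CPM (each count scaled to the size of its library), which held 50.6% of the variance over 12 libraries, the rHDL libraries lay between 31.7 and 42.2 and all others between -18.7 and -4.45, so the loaded libraries lay with the LPS libraries there. Of the macrophage markers, Csf1r, the receptor for the growth factor in the medium, stood at 1153, 1057 and 1074 CPM with rHDL and 1710.0, 1542 and 1696 CPM after loading, so this defining marker of the labelled cell type was present in both groups. Library sizes were adjusted by the TMM method. Differences are log2 differences, rHDL minus loaded unless said otherwise, printed with ± their standard error, and n = 3 libraries in every group. In bulk RNA, fewer cells of a type and less RNA per cell cannot be told apart.

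Among the genes named below, the largest single differences in both directions were in sterol genes. Cholesterol synthesis was higher with rHDL and LXR targets were higher after loading, and a broad immune difference accompanied them. By the share of a list higher after loading, MHC class II (7 of 7 genes) and macrophage identity (86.7%) lay ahead of LXR targets (76.9%). With rHDL, 1335 genes were higher (14.9% of genes tested) and 1490 were lower (16.6%), together 2825 genes (31.5%) called at an edgeR adjusted p under 0.05. A change of at least 2-fold was found for 241 of the genes higher with rHDL and for 381 of those lower, and the median over all genes was 0.00 on the log2 scale. Among genes whose mean log2 CPM was 3 or more, the highest differences included the sterol enzymes Cyp51, Fdft1, Sqle, Sc5d and Hsd17b7, the sterol carrier Stard4 and the cytokine subunit Il23a. The lowest were in the exporters Abcg1 and Abca1 and the heat shock gene pair Hspa1a and Hspa1b.

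**Figure D1:**
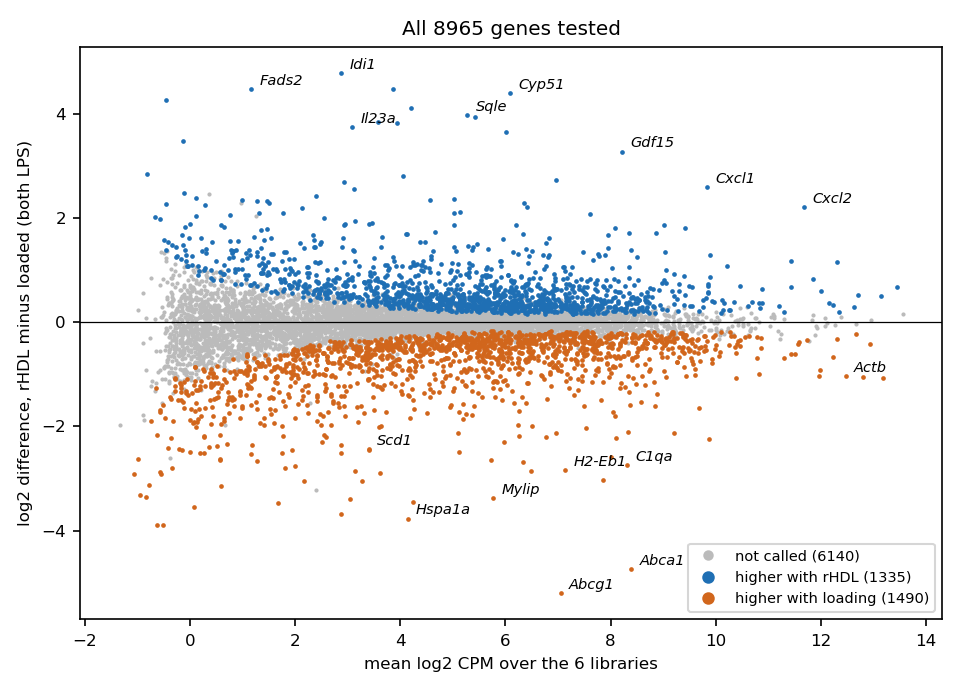
Log2 difference (rHDL minus loaded, both with LPS) against mean log2 CPM over the 6 libraries, with 1 point for each of 8965 genes, 1335 called higher with rHDL in blue, 1490 called higher with loading in orange and the rest in grey. Abcg1 and Abca1 lie lowest among well expressed genes, at -5.20 and -4.75, and sterol enzymes such as Idi1 and Cyp51 lie highest, at 4.79 and 4.40.

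To place the genes, each arm was set against the LPS libraries without pretreatment. Under LPS, rHDL raised 1621 genes (18.1%) and lowered 1654 (18.4%), together 36.5% of genes tested, whereas loading raised 358 (3.99%) and lowered 410 (4.57%), together 8.57%. Most of the genes that differed between the states were called in the rHDL arm alone, 1836 genes (20.5% of genes tested), 871 of them higher with rHDL and 965 lower. A further 172 genes (1.92%) were called in the loading arm alone, and 129 (1.44%) were opposed, that is, called in both arms in opposite directions. Among the opposed genes, 71 were higher with rHDL and lower after loading, and 58 were the reverse. In 527 genes the states differed but neither arm was called. Both arms share the LPS libraries, so a low or high LPS value moves both in one direction, and no overlap between them was tested. The smaller classes also moved with single libraries. Without LPS replicate 1, 2 or 3 the opposed class held 85, 81 or 78 genes, and without loaded replicate 1 or 3 it held 84 in each case. The loading arm held 103 genes without LPS replicate 1, 100 without LPS replicate 3, and 105, 98 or 80 without loaded replicate 1, 2 or 3.

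Cholesterol synthesis was higher with rHDL than after loading in 18 of 19 measured enzymes (94.7%, against 14.9% of all genes tested), and in 0 of them lower. The median log2 difference of the 19 enzymes was 2.82, against 0.00 over all genes. Against LPS alone, 17 of the 19 were higher with rHDL (median 1.34) and 11 were lower after loading (median -1.24), and 11 were opposed. The enzyme not called was Ggps1, which makes geranylgeranyl diphosphate for protein prenylation and lies on a side branch of the pathway.

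Sqle (mm10, chr15:59315092-59331193), squalene epoxidase, the first oxygen-dependent step, was at 157, 147 and 153 CPM with rHDL and 8.24, 10.4 and 10.5 CPM after loading, a difference of 3.98 ± 0.14 (edgeR adjusted p = 7.77e-11). Cyp51, the lanosterol demethylase, was at 329, 297 and 307 CPM with rHDL and 14.9, 16.1 and 13.2 CPM after loading, against 116, 150.4 and 140.2 CPM with LPS alone. The loaded libraries were thus the low ones for these 2 enzymes and the rHDL libraries the high ones, without overlap. The LPS libraries of Cyp51 lay between them. Of all 2825 called genes, 2780 had no overlap of the 2 states. It was also a condition for naming some genes, so here and below it is a description. Idi1, which isomerises the first prenyl unit, had the largest difference of the named genes that were higher with rHDL, 4.79 ± 0.19 (edgeR adjusted p = 2.66e-10), from 37.8, 36.5 and 37.9 CPM with rHDL and 1.06, 0.918 and 2.05 CPM after loading. For Idi1 and Cyp51 the step from LPS alone was larger after loading (-3.37 and -3.20) than with rHDL (1.42 and 1.20). Fdps, the farnesyl diphosphate synthase, is counted here on 14.8% of its own exon bases, and stood at 1.71, 2.37 and 1.81 CPM with rHDL and 0.163, 0 and 0.0934 CPM after loading.

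**Figure D2:**
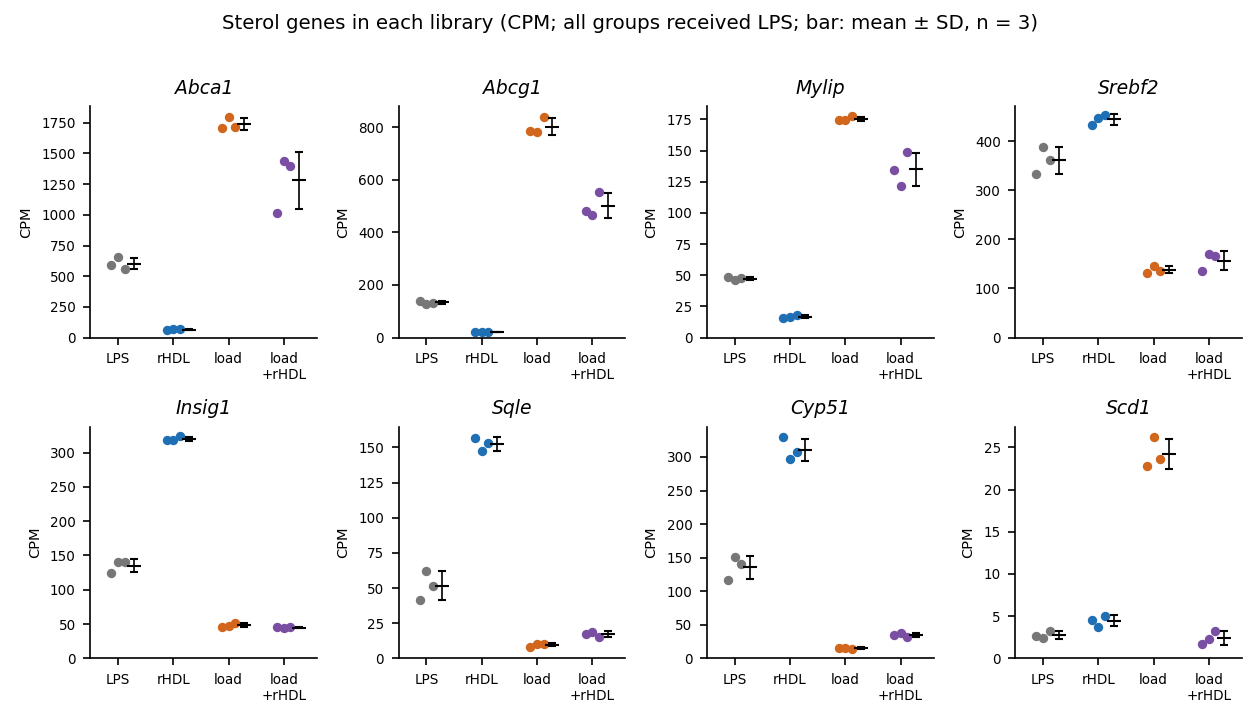
CPM of 8 sterol genes in each library (points) with mean and SD (bars, n = 3) for the 4 LPS-stimulated groups, without pretreatment, with rHDL, with loading (load) and with loading then rHDL. In Srebf2, Insig1, Sqle and Cyp51 the rHDL libraries are highest and in Abca1, Abcg1, Mylip and Scd1 the loaded libraries are highest, with LPS alone between the 2 states in all but Scd1.

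The sensors followed the enzymes in part. Of 6 measured genes of sterol sensing and uptake, 4 were higher with rHDL (66.7%, against 14.9% of all genes tested) and 0 lower (median 1.18). Insig1, the sterol-regulated brake on SREBP processing, stood at 319, 318 and 324 CPM with rHDL and 46.1, 46.9 and 52.1 CPM after loading, a difference of 2.73 ± 0.07 (edgeR adjusted p = 2.81e-12). Srebf2, which encodes SREBP2, stood at 433, 446 and 454 CPM against 132, 146 and 137 CPM, a difference of 1.68 ± 0.09. Neither gene overlapped between the groups. Srebf1, which encodes the SREBP1 forms that drive fatty acid synthesis, was at 116, 119 and 115 CPM with rHDL and 108, 116 and 116 CPM after loading, and its difference of 0.04 ± 0.07 was not called (edgeR adjusted p = 0.734). Stard4, a cytosolic sterol carrier, was opposed with a difference of 3.84 ± 0.19, and Npc1, the lysosomal cholesterol exporter, differed by 0.67 ± 0.13 through the rHDL arm.

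Promoter letters around the starts of the synthesis genes are shown because these genes moved together. RefSeq promoters (GRCm38.p6, the build of the files, from 250 bases before to 50 after each start) matched 6810 of the genes tested. The core of the sterol regulatory element, TCACNCCAC on either strand, was present in 1.17% of these promoters and in 0 of the 14 with an entry among the synthesis enzymes, which says only that these letters are not in that window. In all, 12 spellings were searched, and 8 of them were added after the listed ones had been searched. A looser sterol form among these, TCACNNCAC, was present in 3 of the 14 (21.4%), against 3.79% of all promoters. The other looser sterol forms were each present in 1 to 3 of the 14. ACNCCAC was in 21.4%, against 17.8% of all promoters, and TCACCC in 14.3%, against 17.8%. CACNCCAC, TCACNCNAC and CACCCCAC were in 7.14% each, against 6.89%, 2.85% and 3.26%. The E-box, CACGTG, was in 21.4%, against 11.8%. These shares too are a description. Among the added ones the CCAAT box, a binding sequence of the factor NF-Y, was present on either strand in 13 of the 14 (92.9%), against 41.6% of all 6810 promoters. It was picked for that result, so the share is a description. The windows of 4 synthesis genes with large differences, an entry and a match are printed 5′ to 3′ on the gene's strand, with CCAAT, or ATTGG where it lies on the other strand, in capitals.
Idi1: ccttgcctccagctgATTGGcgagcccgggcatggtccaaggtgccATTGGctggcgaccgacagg
Cyp51: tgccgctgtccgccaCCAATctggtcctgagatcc
Sc5d: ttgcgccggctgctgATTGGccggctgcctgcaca
Hsd17b7: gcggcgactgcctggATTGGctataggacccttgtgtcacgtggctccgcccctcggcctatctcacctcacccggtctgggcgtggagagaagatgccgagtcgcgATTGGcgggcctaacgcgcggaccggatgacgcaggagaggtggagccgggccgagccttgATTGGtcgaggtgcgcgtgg
These windows lie at chr13:8885546-8885611 on the plus strand, chr5:4104707-4104741 on the minus strand, chr9:42264305-42264339 on the minus strand and chr1:169969198-169969385 on the minus strand. Idi1 holds 2 matches and Hsd17b7 holds 3.

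LXR targets went the other way. Of 13 measured targets, 10 (76.9%, against 16.6% of all genes tested) were lower with rHDL than after loading and 0 were higher, with a median of -1.64. Against LPS alone, 8 were lower with rHDL (median -1.12) and 7 were higher after loading (median 0.40), and 5 were opposed. Abcg1 (mm10, chr17:31057694-31117981), which exports cholesterol to mature HDL, stood at 21.4, 21.9 and 22.1 CPM with rHDL and at 784, 780.2 and 839 CPM after loading, with 139, 128 and 133 CPM in the LPS libraries. This was the largest difference of the named genes that were lower with rHDL, -5.20 ± 0.09 (edgeR adjusted p = 1.80e-14). Abca1 (mm10, chr4:53030789-53159895), which exports cholesterol to lipid-poor APOA1, stood at 58.0, 69.7 and 67.3 CPM with rHDL and 1711, 1799 and 1717 CPM after loading, against 591, 654 and 563 CPM with LPS alone. The 3 groups did not overlap for either exporter. The difference for Abca1 was -4.75 ± 0.13 (edgeR adjusted p = 5.48e-12). Mylip, a ubiquitin ligase that degrades the LDL receptor, was at 15.7, 16.5 and 18.5 CPM with rHDL and 175, 174 and 178 CPM after loading, a difference of -3.38 ± 0.09.

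Pltp, the phospholipid transfer protein, and Arl4c, a small GTPase, were also opposed, with differences of -1.64 ± 0.06 and -1.49 ± 0.09. In Apoc2, an activator of lipoprotein lipase (-3.06 ± 0.25), and Mertk, a receptor for dying cells (-1.72 ± 0.14), the rHDL arm alone was called. Lpcat3, which inserts polyunsaturated chains into phospholipids, differed by -0.60 ± 0.08, with the loading arm (0.42) called and the rHDL arm (-0.18) not called. Scd1, the stearoyl-CoA desaturase, did not follow this order. It stood at 4.55, 3.76 and 5.04 CPM with rHDL, 22.8, 26.2 and 23.6 CPM after loading and 2.66, 2.36 and 3.27 CPM with LPS alone, so loading raised it by 3.13 log2 units and rHDL by 0.69, and the direct difference was -2.44 ± 0.16 (edgeR adjusted p = 4.16e-08). For its paralog Scd2 the difference of -0.07 ± 0.24 was not called. Srebf1, described above, is also on the list of LXR targets and was called in neither arm (-0.08 with rHDL and -0.11 after loading). The LXR element, 2 direct copies of AGGTCA with 4 bases between, was found in 0 of the 6810 promoters. Its looser form with AGGTNA was in 0.0587% of them, and both forms were in 0 of the 9 targets with an entry. With so few matches in any promoter, the search cannot tell the targets from other genes. It says only that these letters are not in those windows.

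**Figure D3:**
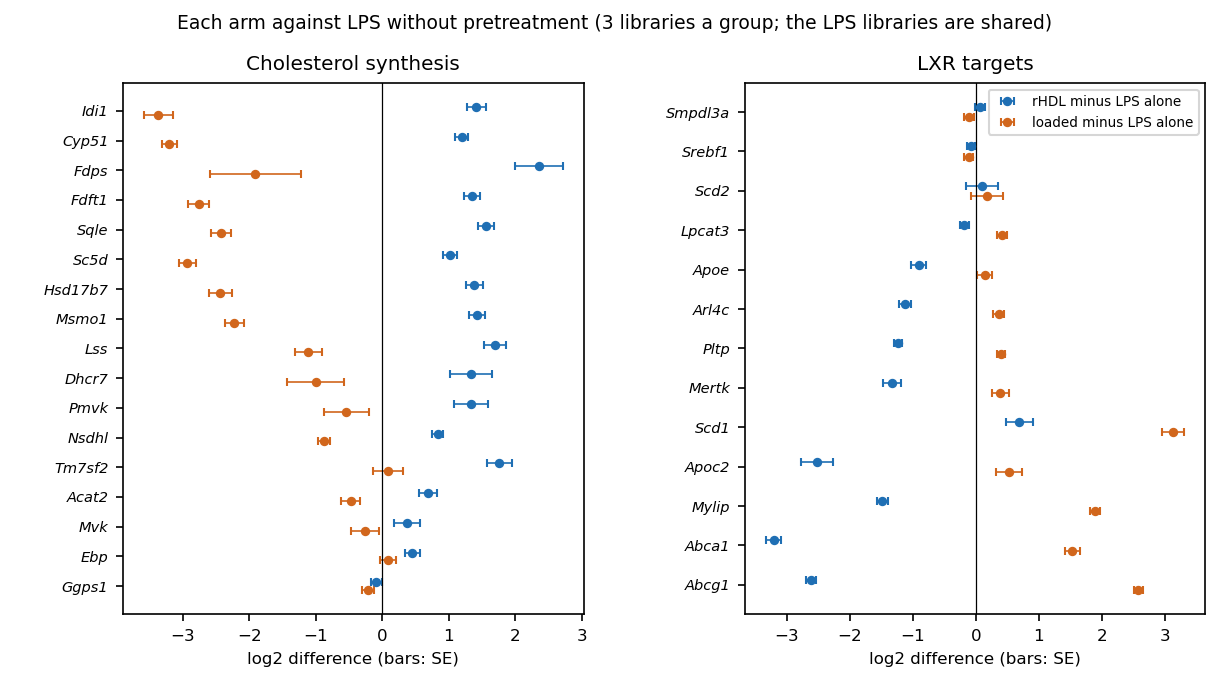
Log2 difference of each arm against LPS without pretreatment, with standard errors, for 17 of the 19 measured cholesterol synthesis enzymes (left) and 13 LXR targets (right), ordered by the direct difference. In cholesterol synthesis, rHDL points lie mostly right of 0 and loading points left of it, and in LXR targets the order is turned for genes such as Abca1, Abcg1 and Mylip, while Scd1 lies right of 0 in both arms.

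Beyond sterols, the fatty acid and phospholipid genes were split. Of 8 measured genes of fatty acid synthesis, 5 were higher with rHDL (62.5%, against 14.9% of all genes tested) and 2 lower (25.0%, against 16.6%), with a median of 0.63. Fasn, the fatty acid synthase, stood at 147, 207 and 197 CPM with rHDL and 34.0, 49.7 and 36.1 CPM after loading, a difference of 2.21 ± 0.24 (edgeR adjusted p = 7.75e-06), called in the rHDL arm. Fads2, the delta-6 desaturase, was opposed with a difference of 4.48 ± 0.29, at 8.66, 9.68 and 8.81 CPM with rHDL and 0.571, 0.306 and 0.28 CPM after loading. Fads1, the delta-5 desaturase, differed by 1.12 ± 0.14 and the elongase Elovl6 by 0.81 ± 0.19. In phospholipid synthesis, 1 of 15 genes was higher (6.67%, under the 14.9% over all genes) and 5 were lower (33.3%, against 16.6%), with a median of -0.25. The higher gene was Pcyt2, the limiting enzyme of phosphatidylethanolamine synthesis, which was opposed with a difference of 2.36 ± 0.11 (edgeR adjusted p = 1.67e-09) and stood at 54.2, 53.2 and 52.5 CPM with rHDL and 9.63, 10.9 and 10.7 CPM after loading. The acyltransferases Lpcat1 (-1.19 ± 0.09) and Agpat3 (-0.40 ± 0.07) were lower with rHDL.

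Lipid droplet and scavenger receptor genes moved in both directions, with 5 of 13 higher and 6 lower (median 0.23). These were 38.5% and 46.2%, against 14.9% and 16.6% of all genes tested. Plin2, the main droplet coat protein of macrophages, was higher with rHDL, at 793, 849 and 824 CPM, than after loading, at 446, 402 and 441 CPM, a difference of 0.94 ± 0.08 (edgeR adjusted p = 1.13e-06). The loaded libraries overlapped those with LPS alone (514, 433 and 470.3 CPM), and the loading arm was not called. Plin3, another coat protein, differed by 0.79 ± 0.08. Lower with rHDL were lipoprotein lipase Lpl (-1.03 ± 0.07) and the triglyceride enzyme Dgat2 (-1.89 ± 0.14), both opposed, and the scavenger receptor Marco (-1.51 ± 0.15), which both arms raised. Among 9 genes of oxysterol and cholesterol ester handling, 1 was higher (11.1%, near the 14.9% over all genes) and 4 were lower (44.4%, against 16.6%). Their median was -0.30. Ch25h, which makes 25-hydroxycholesterol, stood at 128, 89.0 and 94.3 CPM with rHDL and 227, 219 and 206 CPM after loading, and both groups lay under LPS alone at 382, 319 and 334 CPM. Cyp27a1, which makes 27-hydroxycholesterol, was lower by the rHDL arm (-0.94 ± 0.12).

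**Figure D4:**
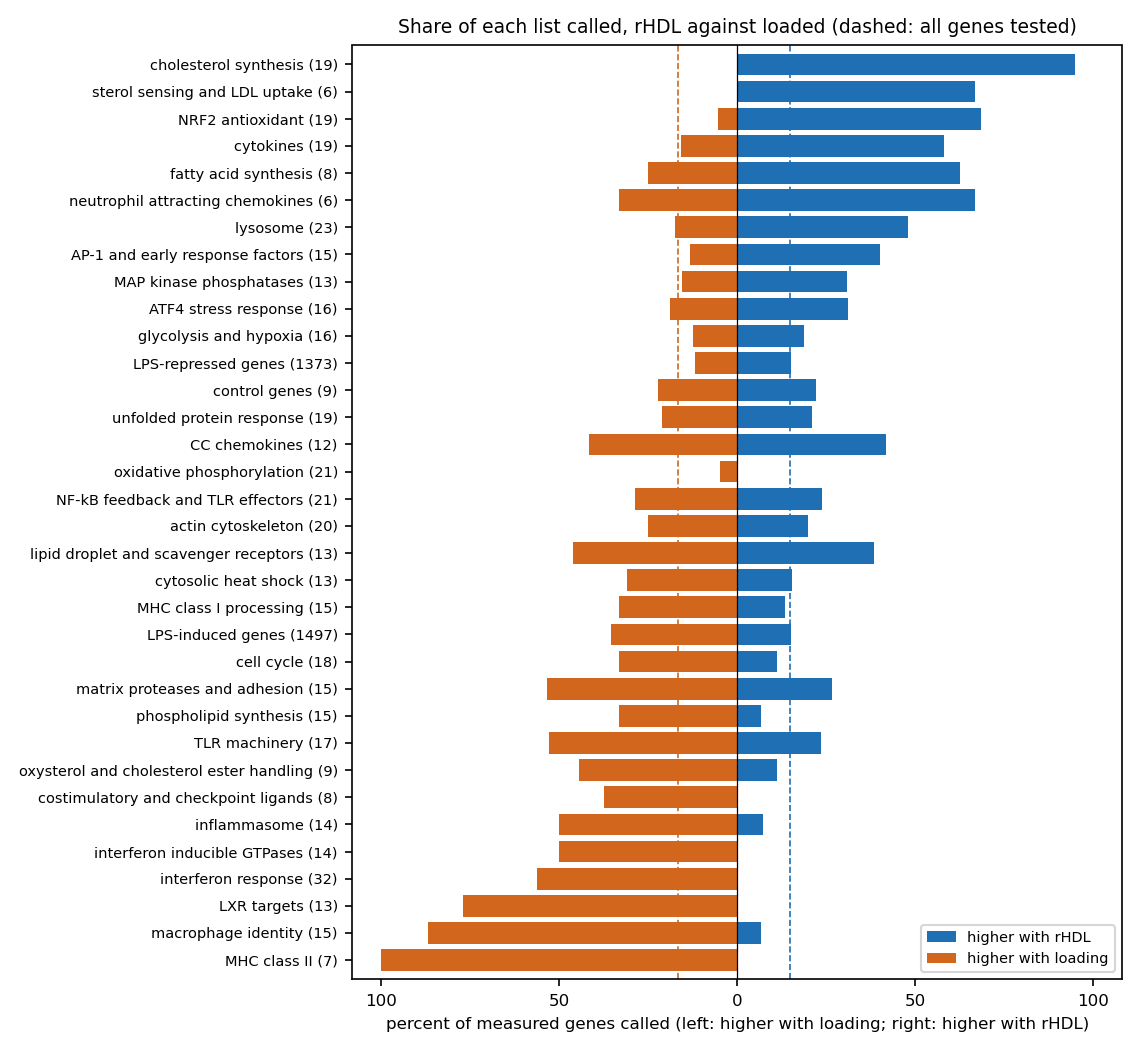
Percent of the measured genes of each list (number in brackets) called higher with rHDL (right, blue) or higher with loading (left, orange), with dashed lines at the shares over all genes tested, 14.9% and 16.6%. Cholesterol synthesis lies at the top with 94.7% higher with rHDL, and MHC class II, macrophage identity and LXR targets lie at the bottom, with 7 of 7 genes, 86.7% and 76.9% higher with loading.

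Inflammatory mediators differed gene by gene between the states, with neutrophil-attracting chemokines and several cytokines higher with rHDL. Of 6 measured CXC chemokines of this group 4 were higher and 2 lower with rHDL (median 1.49). These were 66.7% and 33.3%, against 14.9% and 16.6% of all genes tested. Cxcl1 (mm10, chr5:90891245-90893115) was at 1849, 2544 and 2374 CPM with rHDL, 315, 436 and 374 CPM after loading and 321, 434 and 337 CPM with LPS alone. The loaded and LPS libraries overlapped, and the rHDL libraries stood apart above both. The difference was 2.59 ± 0.15 (edgeR adjusted p = 1.30e-08), and the loading arm was 0.04 and not called. Cxcl2 differed by 2.21 ± 0.10 (edgeR adjusted p = 1.47e-09), at 6631, 7348 and 7132 CPM with rHDL and 1381, 1679 and 1517 CPM after loading. Cxcl3, raised in both arms, differed by 1.34 ± 0.14. The 2 lower members were the platelet chemokine genes Pf4, which differed by -0.93 ± 0.16, and Ppbp, named here only to complete the list.

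Of 19 measured cytokines, 11 were higher with rHDL (57.9%, against 14.9% of all genes tested) and 3 were lower (15.8%, near the 16.6% over all genes), with a median of 0.42. Il23a, the subunit particular to interleukin 23, was opposed, at 21.2, 44.1 and 27.8 CPM with rHDL, 1.47, 3.06 and 2.52 CPM after loading and 5.96, 5.54 and 5.12 CPM with LPS alone. The 3 groups did not overlap, and the difference was 3.75 ± 0.29 (edgeR adjusted p = 2.33e-07). Il12b, the subunit shared by interleukins 12 and 23, was raised in both arms, to 422, 422 and 448 CPM with rHDL and 327, 343 and 293 CPM after loading from 172, 183 and 175 CPM, and the states differed by 0.42 ± 0.09 (edgeR adjusted p = 0.00169). Il1a, an alarmin of the interleukin 1 family, was opposed, at 1432, 1636 and 1434 CPM against 526, 668 and 638 CPM, a difference of 1.30 ± 0.10. Il1b differed by 0.52 ± 0.08, with the rHDL arm (0.30) called and the loading arm (-0.22) not called. Gdf15, a stress cytokine, stood at 916, 913 and 966 CPM with rHDL and 87.5, 110.0 and 90.6 CPM after loading, a difference of 3.28 ± 0.12 (edgeR adjusted p = 1.03e-10). Csf2, which encodes GM-CSF, was at 14.4, 27.5 and 22.8 CPM with rHDL and 1.88, 6.12 and 3.27 CPM after loading (2.56 ± 0.34), and Osm, oncostatin M, differed by 1.54 ± 0.12. For Gdf15, Csf2 and Osm the loaded libraries overlapped those with LPS alone. Lower with rHDL was Ebi3, a subunit of interleukin 27 (-0.70 ± 0.08).

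Several central LPS response genes showed no called difference between the states in the main fit. Il6 was at 723, 539.6 and 558 CPM with rHDL and 519, 436 and 531 CPM after loading (0.29 ± 0.19, edgeR adjusted p = 0.265), so that the lowest rHDL library lay just above the highest loaded one. With the replicate number as a block Il6 was called higher with rHDL (edgeR adjusted p = 0.0158). Tlr4, the LPS receptor, was at 166, 169 and 168 CPM and 164, 174 and 165 CPM (0.00 ± 0.07, edgeR adjusted p = 0.999). Nlrp3, the inflammasome sensor, differed by 0.02 ± 0.06 (edgeR adjusted p = 0.812) and Ifnb1, interferon beta, by 0.10 ± 0.35 (edgeR adjusted p = 0.855) at 2.40, 1.60 and 1.66 CPM and 1.55, 1.12 and 2.62 CPM. Tnf differed by 0.40 ± 0.26 (edgeR adjusted p = 0.277), but only 2.9% of its exon bases are counted. Il10, an anti-inflammatory cytokine, was lowered in both arms, to 243, 167 and 172 CPM with rHDL and 122, 127 and 125 CPM after loading from 246, 278 and 295 CPM, and was higher with rHDL than after loading by 0.64 ± 0.13 (edgeR adjusted p = 0.00123).

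CC chemokines were split evenly, with 5 of 12 higher with rHDL and 5 lower (median -0.20). This was 41.7% each way, against 14.9% and 16.6% of all genes tested. Ccl2, which recruits monocytes, was raised in both arms and stood at 836, 823 and 863 CPM with rHDL and 235, 261 and 274 CPM after loading, a difference of 1.71 ± 0.15 (edgeR adjusted p = 1.23e-06). Ccl3 and Ccl4 were higher with rHDL by 1.15 ± 0.08 and 0.61 ± 0.11. Ccl24, an eosinophil attractant, was lower with rHDL (-2.85 ± 0.18), at 3.92, 3.41 and 2.33 CPM against 24.3, 20.0 and 26.2 CPM. Ccl22 was raised in both arms, to 660.3, 573 and 589 CPM with rHDL and 596, 798 and 794 CPM after loading from 247, 309 and 294 CPM. The states overlapped for Ccl22, and the difference of -0.26 ± 0.11 was not called (edgeR adjusted p = 0.0915). It was called without loaded replicate 1 (edgeR adjusted p = 0.0128) and with the replicate number as a block (edgeR adjusted p = 0.033).

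**Figure D5:**
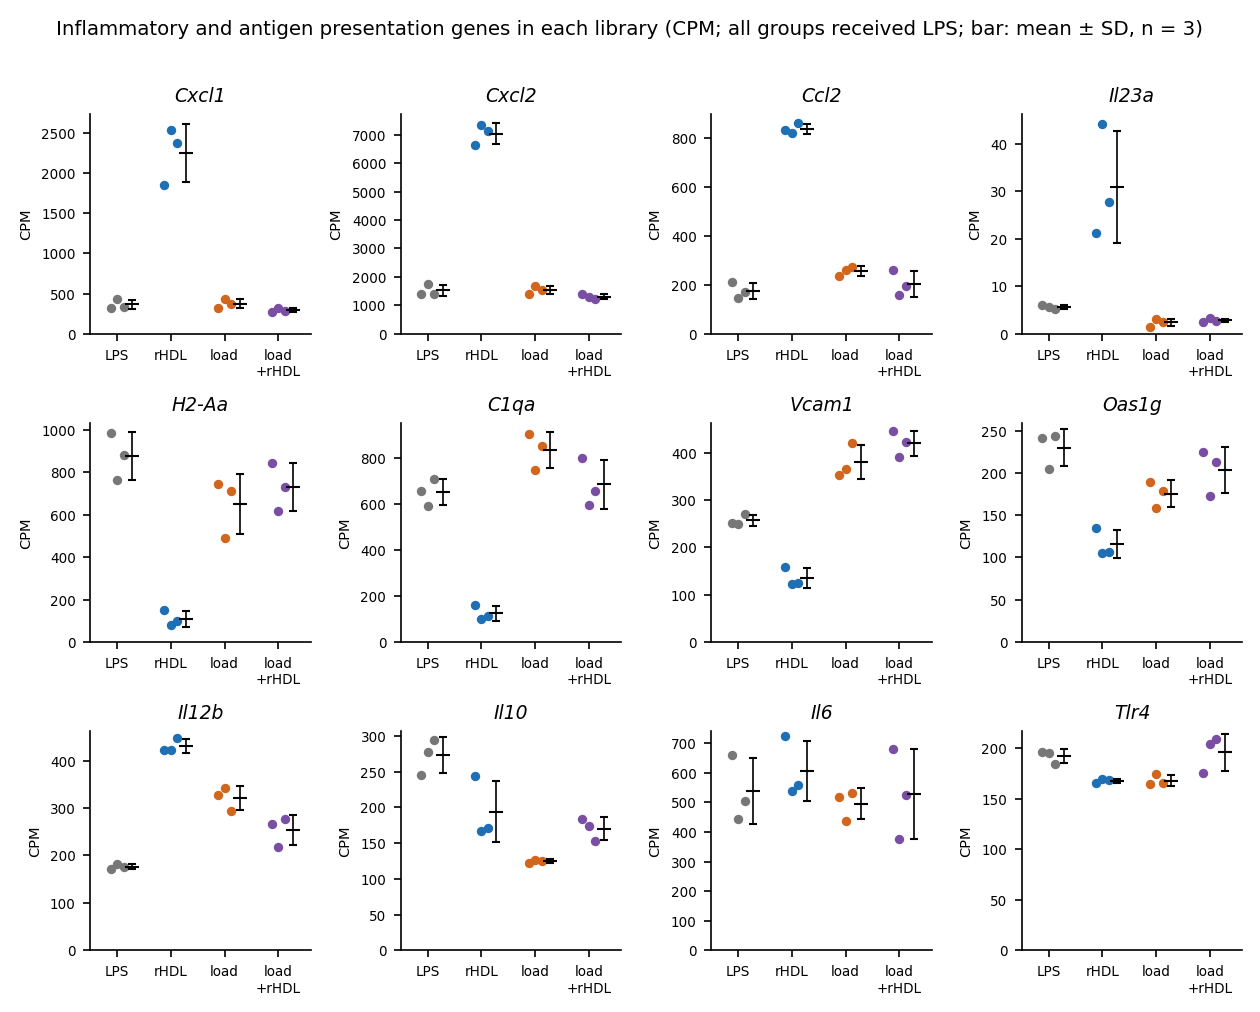
CPM of 12 inflammatory and antigen presentation genes in each library (points) with mean and SD (bars, n = 3) for the 4 LPS-stimulated groups, without pretreatment, with rHDL, with loading (load) and with loading then rHDL. Cxcl1, Cxcl2, Ccl2 and Il23a are highest in the rHDL libraries and H2-Aa, C1qa, Vcam1 and Oas1g are lowest there, while the 2 states overlap in Tlr4.

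Interferon-stimulated genes were lower with rHDL in 18 of 32 measured genes (56.2%, against 16.6% of all genes tested) and higher in 0, with a median of -0.42. In this list all 32 were lower with rHDL than with LPS alone, 3 were lower after loading, and the arm medians were -0.77 and -0.33. The differences were small beside those of the sterol genes. Oas1g, a sensor of double-stranded RNA, stood at 135, 106 and 107 CPM with rHDL, 189.9, 158 and 178 CPM after loading and 241, 205 and 244 CPM with LPS alone, in that order without overlap, and the states differed by -0.60 ± 0.12 (edgeR adjusted p = 0.00133). Trim30a differed by -0.50 ± 0.10 and Zbp1, a sensor of Z-form nucleic acid, by -0.72 ± 0.14. Cxcl10, a T cell attractant, stood at 4918, 3037 and 3625 CPM with rHDL and 7030.0, 4989 and 6370.0 CPM after loading. Its difference of -0.67 ± 0.23 was called (edgeR adjusted p = 0.0417) but was lost with DESeq2 (adjusted p = 0.0728) and without rHDL replicate 2 or 3 or loaded replicate 1 or 3. Mx1, counted on 15.6% of its exon bases, differed by -0.85 ± 0.14. Of 14 interferon-inducible GTPases, which act on pathogen vacuoles, 7 were lower, where 16.6% of all genes were, and 0 were higher (median -0.49). Gbp9 differed by -1.12 ± 0.21 and Gbp2 by -0.68 ± 0.13. Compared with LPS alone, 10 of the 14 were lower with rHDL (median -0.77) and 1 was lower after loading (median -0.32).

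The core of the interferon-stimulated response element, GAAANNGAA on either strand, was present in 14 of the 24 promoters with an entry in this list (58.3%), against 8.87% of all 6810. The list was written as genes known to respond to interferon, so this share describes the list and not the rHDL effect. The windows of 3 genes described above with a match are printed 5′ to 3′ on the gene's strand, with the matches in capitals. In Trim30a the match lies on the other strand, and the window lies inside the span of the gene in the files (chr7:104409026-104465193). It therefore belongs to an internal start and not to the outermost one.
Trim30a: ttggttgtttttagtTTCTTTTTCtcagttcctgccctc
Oas1g: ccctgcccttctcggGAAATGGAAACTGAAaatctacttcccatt
Cxcl10: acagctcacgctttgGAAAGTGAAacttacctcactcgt
These windows lie at chr7:104446099-104446137, chr5:120887602-120887646 and chr5:92349079-92349117, all on the minus strand. Oas1g holds 2 matches that overlap.

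MHC class II was lower with rHDL than after loading in 7 of 7 measured genes, against 16.6% of all genes tested, with a median of -1.83. Of these, 6 were lower than with LPS alone, and 0 were called in the loading arm. H2-Aa, an alpha chain, stood at 149.8, 77.8 and 96.7 CPM with rHDL and 747, 488 and 714 CPM after loading, with 987, 765 and 879.8 CPM in LPS alone. The loaded libraries lay below the LPS libraries in all 3 cases, but the loading arm of -0.43 was not called. The difference between the states was -2.59 ± 0.22 (edgeR adjusted p = 6.40e-07), and that of the beta chain H2-Eb1 was -2.84 ± 0.23. H2-DMa, which loads peptides, differed by -1.83 ± 0.17, and Cd74, the invariant chain, counted on 13.6% of its exon bases, by -1.77 ± 0.17. In MHC class I processing 2 of 15 genes were higher (13.3%, near the 14.9% over all genes) and 5 lower (33.3%, against 16.6%), with a median of -0.23, among them the immunoproteasome subunit Psmb9 (-0.76 ± 0.18). Of 8 costimulatory and checkpoint ligands, 3 were lower (37.5%, against 16.6%) and 0 higher (median -0.36). Cd86, a ligand of CD28, was lowered in both arms, to 109.7, 65.5 and 73.2 CPM with rHDL and 178, 144 and 174 CPM after loading. Icosl, the ligand of ICOS, was called in the loading arm, at 116, 129 and 125 CPM against 66.8, 88.2 and 81.0 CPM with rHDL (-0.65 ± 0.10).

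Macrophage identity genes were lower with rHDL in 13 of 15 (86.7%, against 16.6% of all genes tested) with a median of -1.13, and higher in 1, Cd68, which is counted on 34.8% of its exon bases. The complement genes led, with C1qa at 162, 101 and 111 CPM with rHDL and 903, 749 and 850.2 CPM after loading, a difference of -2.74 ± 0.16 (edgeR adjusted p = 1.52e-08), and with C1qb and C1qc at -2.23 ± 0.13 and -2.12 ± 0.13. Maf, a factor of mature macrophages, differed by -1.18 ± 0.09, and Csf1r by -0.59 ± 0.06. Of genes outside the lists, Tgfbi, an extracellular matrix protein, stood at 40.0, 28.5 and 31.5 CPM with rHDL and 272, 189 and 268 CPM after loading (-2.86 ± 0.15). Fgl2, a membrane prothrombinase, was opposed at 80.3, 73.9 and 89.2 CPM against 645, 689.5 and 639 CPM (-3.02 ± 0.15). Cd5l, a secreted macrophage protein, and the ectoenzyme Cd38 were opposed as well, with -2.68 ± 0.15 and -2.31 ± 0.08.

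Most markers of other cells were near the floor, and the higher sums rested on a few genes, namely Bst2 and Itgax, Vwf and Kdr, and Pf4. Of 9 neutrophil markers in the table, 3 (S100a9, Mpo and Elane) had 0 counts in the 6 libraries, and the summed level of the list ran from 4.7 to 6.9 CPM with rHDL and from 10.6 to 12.6 CPM after loading, with 2 of 3 measured genes lower (Mmp8 and S100a8) and 0 higher. The call for S100a8 was lost without rHDL replicate 3 (edgeR adjusted p = 0.052) and with counts thinned to the smallest library (edgeR adjusted p = 0.0694). Lymphoid markers summed to at most 0.2 and 0.3 CPM, and 0 of them were measured. Dendritic cell markers ran from 379 to 449.8 CPM with rHDL and from 446.5 to 565 CPM after loading, with 1 of 4 measured genes lower, Ccr7, and 2 of 9 at 0, Siglech and Clec9a. Nearly all of this level was Bst2 (3267 to 5409 counts) and Itgax. Itgax had 1672 counts in loaded replicate 3, against 907 and 917 in the other loaded libraries. Stromal markers ran from 164 to 197 CPM and from 174 to 241 CPM, with Vwf higher and Kdr lower of 4 measured, and loaded replicate 3 stood apart in 3 collagen genes, with 51 counts of Col1a1 against 4 to 6 in the other 5, 92 of Col1a2 against 11 to 14 and 132 of Col3a1 against 1 to 6. The mast, erythroid and megakaryocyte list ran from 33.3 to 43.2 CPM and from 62.8 to 76.3 CPM, with 1 gene measured, Pf4, which was lower. The part of these cells in the results above was not tested.

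Of 17 signalling genes around the Toll-like receptors, 4 were higher with rHDL (23.5%, against 14.9% of all genes tested) and 9 were lower (52.9%, against 16.6%), with a median of -0.37. Tlr9 and Tlr8, endosomal receptors for DNA and RNA, differed by -1.69 ± 0.29 and -1.24 ± 0.11, and Tlr13, a receptor for bacterial RNA, was higher by 0.79 ± 0.09. Of 14 inflammasome genes, 1 was higher (7.14%, under the 14.9% over all genes) and 7 were lower, where 16.6% of all genes were (median -0.37). Pycard, the adaptor ASC, differed by -1.02 ± 0.13 and the DNA sensor Aim2 by -0.74 ± 0.13. Among 21 NF-kB feedback genes and effectors, 5 were higher (23.8%, against 14.9%) and 6 lower (28.6%, against 16.6%), with a median of 0.09. Ptgs2, cyclooxygenase 2, was higher with rHDL by 0.67 ± 0.07, and the adhesion molecule Vcam1 was opposed, at 159, 123 and 124 CPM with rHDL and 354, 366 and 422 CPM after loading (-1.49 ± 0.10, edgeR adjusted p = 7.46e-08). Of 15 AP-1 and early response factors, 6 were higher (40.0%, against 14.9%) and 2 lower (13.3%, near the 16.6% over all genes). Their median was 0.24, with Maff at 1.69 ± 0.10, Ier3 at 1.28 ± 0.10 and Fos at -1.02 ± 0.18. Of 13 MAP kinase phosphatase genes, 4 were higher (30.8%, against 14.9%) and 2 lower (15.4%, near the 16.6% over all genes). Their median was 0.05, with Dusp4 at 1.87 ± 0.16 and Dusp2 at -0.60 ± 0.10. Of 15 matrix protease and adhesion genes, 4 were higher (26.7%, against 14.9%) and 8 lower (53.3%, against 16.6%), with a median of -0.37. Plaur, the urokinase receptor, was opposed at 1.25 ± 0.08, and the membrane protease Mmp14 differed by -1.05 ± 0.07.

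Antioxidant targets of NRF2 were higher with rHDL in 13 of 19 genes (68.4%, against 14.9% of all genes tested) and lower in 1, with a median of 0.62. Srxn1, sulfiredoxin, stood at 359.8, 432 and 429 CPM with rHDL and 147, 161 and 148 CPM after loading, a difference of 1.42 ± 0.08 (edgeR adjusted p = 1.64e-08), and the LPS libraries, at 138, 155 and 145 CPM, overlapped the loaded ones. Slc7a11, the cystine transporter, was opposed, at 1078, 1403 and 1360.0 CPM against 359, 415 and 322 CPM (1.81 ± 0.15), and Gclm, a subunit of the first enzyme of glutathione synthesis, differed by 1.36 ± 0.10. Sqstm1 differed by 1.35 ± 0.07, counted on 5.6% of its exon bases. Hmox1, the haem oxygenase, and Nfe2l2, which encodes NRF2, both named after their values were seen, were not called. Of 16 ATF4 stress genes, 5 were higher (31.2%, against 14.9%) and 3 lower (18.8%, near the 16.6% over all genes). Their median was 0.17, with Nupr1 at -1.23 ± 0.12.

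In the unfolded protein response as many genes were higher as lower with rHDL, 4 of 19 each (median -0.04). This was 21.1% each way, not far above the 14.9% and 16.6% over all genes tested. Against LPS alone, 11 were raised with rHDL, where 18.1% of all genes were, and 11 after loading, where 3.99% were, with arm medians of 0.32 and 0.41, and 10 genes were raised in both. Sdf2l1, a chaperone partner, was raised by 0.56 with rHDL and 0.87 after loading. Among 13 cytosolic heat shock genes, 2 were higher (15.4%, near the 14.9% over all genes) and 4 lower (30.8%, against 16.6%). Their median of 0.05 turned negative under 5 alternatives. The near-identical copies Hspa1a and Hspa1b, between which reads may be split, stood out, with Hspa1a at 5.37, 4.52 and 4.22 CPM with rHDL, 52.4, 68.6 and 73.0 CPM after loading and 48.4, 73.6 and 78.1 CPM with LPS alone, a difference of -3.77 ± 0.20 (edgeR adjusted p = 5.47e-09). Of 23 lysosomal genes, 11 were higher with rHDL (47.8%, against 14.9% of all genes tested) and 4 lower (17.4%, near the 16.6% over all genes), with a median of 0.29, among the higher ones the proton pump subunits Atp6v1a (0.70 ± 0.07) and Atp6v0d1 (0.61 ± 0.06) and the calcium channel Mcoln1 (0.72 ± 0.08).

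Of 21 genes of oxidative phosphorylation, 0 were higher and 1 was lower (4.76%, against 16.6% of all genes tested, median -0.01). Of 16 glycolysis and hypoxia genes, 3 were higher (18.8%) and 2 lower (12.5%), shares near the 14.9% and 16.6% over all genes (median 0.13). Hk2, the inducible hexokinase, was called in the loading arm, at 367, 360.1 and 328 CPM against 496, 496 and 504 CPM with rHDL (0.50 ± 0.06). Of 18 cell cycle genes, 2 were higher (11.1%, against 14.9% of all genes tested) and 6 lower (33.3%, against 16.6%), with a median of -0.27. Mki67 differed by 0.64 ± 0.16 and Top2a, called in the loading arm, by -0.77 ± 0.20. Of 20 actin cytoskeleton genes, 4 were higher (20.0%) and 5 lower (25.0%), shares not far above the 14.9% and 16.6% over all genes (median -0.05). Actb, beta actin, often taken as a control, stood at 4537, 3651 and 3776 CPM with rHDL and 8819, 7315 and 8415 CPM after loading, a difference of -1.04 ± 0.13 (edgeR adjusted p = 2.65e-05). Of 9 control genes, 2 were higher and 2 lower (22.2% each, against 14.9% and 16.6% over all genes). Their median of -0.06 turned positive under 2 alternatives.

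A separate group of 400 genes (4.46% of genes tested) was moved one way by both arms, 234 downward and 166 upward against LPS alone. Of these, 161 were also called between the states and 239 were not. Among the 161, 105 were lowered further by rHDL than by loading and 36 were raised further. Osmr, the receptor for oncostatin M, stood at 44.0, 32.2 and 39.0 CPM with LPS alone, 5.18, 3.69 and 3.39 CPM with rHDL and 14.9, 9.28 and 11.9 CPM after loading, a difference of -1.55 ± 0.21 (edgeR adjusted p = 4.93e-05). The 3 groups did not overlap. Slfn4, an interferon-inducible gene, was lower than with LPS alone in both arms, with -2.41 for rHDL and -1.16 for loading. Lipg, the endothelial lipase, was lowered more by loading, to 113, 73.3 and 101 CPM against 226, 119 and 157 CPM with rHDL and 773, 458 and 668 CPM with LPS alone. The difference between the states (0.80 ± 0.26, edgeR adjusted p = 0.0278) was lost without rHDL replicate 1 or loaded replicate 2 or 3. Both arms share the 3 LPS libraries, and the size of this class moved with single libraries. It held 158 genes without LPS replicate 1, 185 without LPS replicate 3, and 261, 183 or 169 without loaded replicate 1, 2 or 3.

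Genes induced by LPS in the separate table of untreated and LPS-treated cells were more often lower than higher with rHDL. Of 1497 such genes tested here, 530 (35.4%, against 16.6% of all genes tested) were lower with rHDL than after loading and 225, a share close to the 14.9% over all genes, were higher, with a median of -0.16. Against LPS alone, 708 of them were lower with rHDL, where 18.4% of all genes were, and 198 were lower after loading, where 4.57% were. Of 1373 genes that LPS repressed, 162 (11.8%) were lower and 207 (15.1%) higher, with a median of -0.01.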

How the data were processed

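RNA was taken from mouse macrophages with a RIN above 8 and read by poly-dT primed RNA sequencing, per the labels' protocols. The deposited values are raw read counts per annotated row. Per the submitters' processing notes cutadapt, HISAT2, Subread featureCounts and DESeq2 were used with mm10, with versions not given in the sources used here. Each of 2 count tables held 32850 rows, which were summed here to 24059 gene symbols. All 6696 rows whose exon bases are each shared with another row had 0 counts, so genes with few exon bases of their own are undercounted.

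The table of 12 LPS-stimulated libraries in 4 groups was fitted with edgeR 4.0.16 in R 4.3.3 (TMM scaling, filterByExpr with a minimum count of 10, quasi-likelihood F test), with Benjamini-Hochberg adjustment over 8965 genes and a threshold of 0.05. All groups shared one estimate of spread. Library totals of the 6 libraries compared ran from 9464916 to 15607889 counts. Replicates differed by more than sampling noise (chi-square per degree of freedom of at least 2.96). The other table gave the LPS-induced and LPS-repressed genes (log2 change of at least 1). Alternatives were DESeq2 1.42.0, other scalings and filters, a replicate block, thinning, single-row genes, a 1.5-fold minimum, both groups alone and leaving out each library.

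The comparison and the 37 gene lists were chosen with earlier results of these data known. Named genes were the 15 largest called differences each way at a mean log2 CPM of at least 3 without overlap of the groups, up to 5 called genes per list with the smallest p, the 8 leading genes each way of the opposed and both-arm classes, and a fixed panel. Older symbols in the files were matched through RefSeq (Adgre1 as Emr1). Promoters of 300 bases came from RefSeq GRCm38.p6. A gene with several promoters counted as holding a motif if any of them did, and printed windows are from the promoter with the most matches. Some genes of the lists are not reported here by name.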

Additional observations from a re-analysis of the deposited data

How the results depend on the processing

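Of 199 named genes, 186 were called in the comparison of rHDL with loading. Under the alternatives 0 of the 199 changed direction, and 19 of those called lost the call under at least 1 setting, among them Cxcl10, Ccl5, S100a8 and Lipg. Most named genes were chosen by their differences or p-values in these data, so these counts do not describe all calls. Of all 2825 calls, 2071 to 2490 were kept when 1 rHDL or loaded library was left out. Leaving out 1 rHDL or loaded library at a time gave 921 to 1273 genes higher with rHDL and 1197 to 1511 lower, and leaving out an LPS library gave 1240 to 1343 and 1413 to 1457. Over all 9 libraries left out in turn there were 78 to 129 opposed genes, 1400 to 1841 in the rHDL arm, 80 to 175 in the loading arm and 158 to 399 moved one way by both arms. Requiring a minimum change of 1.5-fold gave 223 higher and 337 lower. DESeq2 gave 1251 and 1426, and scaling by library totals alone gave 1392 higher and 1341 lower, which turned the balance of the calls and moved the median over all genes from 0.001 to 0.038. With the replicate number as a block the calls were 1717 and 1793, with 236 opposed, 277 in the loading arm and 989 moved one way by both arms. Under the block Il6 (adjusted p = 0.0158) and Ccl22 (adjusted p = 0.033) were called. Same-numbered rHDL and loaded libraries correlated at 0.195, 0.222 and -0.014 in their deviations from the group means, and differently numbered ones at no more than 0.1. For LPS and loading the same-numbered values were 0.177, 0.254 and 0.047, with no more than 0.03 otherwise. For LPS and rHDL they were 0.154, 0.243 and -0.03, with no more than 0.104 otherwise. Between rHDL and loading with rHDL, a pair not compared here, they were 0.436, 0.283 and 0.177, with no more than 0.106 otherwise. Libraries numbered 1 and 2 thus shared deviations across groups, and those numbered 3 did so only in some pairs. The labels do not say what the numbers mean, so the main fit had no block and the block results are given beside it. The median of the cytosolic heat shock list turned to -0.042 with genes above 1 CPM in 3 libraries, -0.049 with single-row genes and -0.038 with the 2 groups alone, and ran from -0.023 to 0.065 with 1 library left out, the lowest without loaded replicate 2, and -0.002 without rHDL replicate 1. The median of the control genes turned to 0.003 with single-row genes and ran from -0.09 to 0.048 with 1 library left out, the highest without rHDL replicate 2. The cause of these changes was not tested. With 3 libraries per group, differences near the threshold depend on single libraries, and levels under about 1 CPM rest on few counts.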

Other observations

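Cells that were loaded with cholesterol and then given rHDL before LPS, with 3 libraries in the same table, belong to no comparison above. Their values were set beside the loaded libraries as a description, with no test. The median log2 difference of the cholesterol synthesis enzymes, loaded with rHDL minus loaded, was 0.47, beside 2.82 for rHDL minus loaded, and that of LXR targets was -0.38, beside -1.64. MHC class II genes had a median of 0.17 in these cells against the loaded ones, beside -1.83, and neutrophil-attracting chemokines 0.08, beside 1.49. The unfolded protein response list had a median of -0.45, whereas rHDL minus loaded had -0.04. Scd1 stood at 1.64, 2.33 and 3.24 CPM after loading with rHDL, beside 2.66, 2.36 and 3.27 CPM with LPS alone and 22.8, 26.2 and 23.6 CPM after loading.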
